A study of Mus musculus with 8 samples.

Results

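The genes described here are the 10 ligands and receptors of the vascular endothelial growth factor (VEGF) and angiopoietin systems, chosen by symbol: Vegfa, Vegfb, Vegfc, their receptors Flt1, Kdr and Flt4, Angpt1, Angpt2, and the receptors Tek and Tie1. All 10 were found among the 32285 genes measured. The study digested the ascending part of the thoracic aorta from 3 old wildtype mice, aged 81, 84 and 88 weeks. Collagenase and elastase were used for 60 min at 37 °C, and dead cells were removed. Single-cell RNA sequencing of the 3′ ends of transcripts was combined with hashtag antibodies, 1 hashtag marking each age. No young mice and no treatment were among the samples analysed here, and with 1 animal an age no comparison of ages was made.

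VEGFs are secreted growth factors for endothelial cells. Vegfa binds the signalling receptor Kdr (VEGFR2) and, more tightly, Flt1 (VEGFR1), which is known as a decoy that limits the Vegfa reaching Kdr; Vegfb binds Flt1, and Vegfc binds Flt4 (VEGFR3), the main receptor of lymphatic endothelium. Angpt1 activates Tek (Tie2) and steadies the endothelial barrier, Angpt2 can block or weakly activate Tek depending on context, and Tie1 is the partner receptor that modulates Tek.

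The promoters of 4 receptors are shown first, because Kdr and Flt1 were low in the large-vessel subtype described below while Tek and Tie1 were not. Each is the 250 bases before the RefSeq start site (build GRCm38.p6), 5′ to 3′ on the gene's strand, and capitals mark every match, on either strand, to the motifs searched: the ETS core CCGGAA, the HIF core ACGTG, the KLF motif CACCC, the AP-1 motif TGACTCA, the FOX motif TGTTTAC and the GATA motif AGATAA.
Kdr, chr5:75978456-75978705, minus strand: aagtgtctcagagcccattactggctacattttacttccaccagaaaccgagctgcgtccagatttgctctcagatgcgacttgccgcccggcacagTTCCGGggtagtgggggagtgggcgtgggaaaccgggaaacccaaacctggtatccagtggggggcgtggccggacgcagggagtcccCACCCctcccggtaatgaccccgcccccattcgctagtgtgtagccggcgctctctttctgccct
Flt1, chr5:147726012-147726261, minus strand: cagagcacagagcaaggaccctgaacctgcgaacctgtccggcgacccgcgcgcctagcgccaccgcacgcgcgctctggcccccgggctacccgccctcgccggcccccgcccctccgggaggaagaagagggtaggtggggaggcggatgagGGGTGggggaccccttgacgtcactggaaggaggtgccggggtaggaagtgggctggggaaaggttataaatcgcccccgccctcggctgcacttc
Tek, chr4:94739039-94739288, plus strand: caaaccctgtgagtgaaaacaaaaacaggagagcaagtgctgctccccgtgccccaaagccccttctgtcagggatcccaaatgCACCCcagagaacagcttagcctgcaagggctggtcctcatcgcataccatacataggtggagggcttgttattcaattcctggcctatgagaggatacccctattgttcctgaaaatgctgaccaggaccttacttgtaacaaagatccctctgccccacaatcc
Tie1, chr4:118489850-118490099, minus strand: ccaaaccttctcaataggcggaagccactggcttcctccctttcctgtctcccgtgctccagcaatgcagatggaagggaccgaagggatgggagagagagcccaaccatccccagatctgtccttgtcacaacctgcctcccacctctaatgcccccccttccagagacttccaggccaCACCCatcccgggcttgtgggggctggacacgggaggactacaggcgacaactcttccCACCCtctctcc
The Kdr window held 1 ETS core and 1 KLF motif. Flt1 and Tek held 1 KLF motif each and Tie1 held 2, with none of the other 5 motifs in these 3 windows. Of all 32817 RefSeq windows of that length, 12% held the ETS core, 16.6% the HIF core, 52% the KLF motif, 4.46% the AP-1 motif, 3.16% the FOX motif and 9.99% the GATA motif. Windows were found for 8 of the 10 members. The HIF core was found in 1 of the 9 windows, the second start of Vegfa.

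The matrix held 26916 barcodes, of which 11301 passed the filters on cells, and 10408 of these had no doublet call and not more than 1 hashtag. Exactly 1 hashtag was carried by 4175 cells (569, 2554 and 1052 from the animals of 81, 84 and 88 weeks), and these gave the values per animal. Clusters were built without the members and named "-like" from marker genes. In the clustering of all 10408 cells, the share with a hashtag was 89.2% in endothelial-like, 16.5% in fibroblast-like and 10.1% of 4783 smooth muscle-like cells. A further 593 cells, 84.65% of them with a hashtag, lay in unnamed clusters there. These held 29620 UMIs of smooth muscle markers and 1386 of T cell markers in each 1e+06 UMIs. The hashtagged cells were clustered separately for the values per animal, which gave 902 smooth muscle-like cells, so the shares do not describe that class exactly. Not all cells were of the vessel wall: T cell-like cells were the largest hashtagged class (1641 cells, one cluster led by Rag1 and Cd4), and there were small epithelial-like clusters, one led by the airway genes Bpifa1 and Scgb1a1. Levels below are CPM, the UMIs (counted transcript molecules) of a gene scaled to a common total of UMIs in a class of an animal, given per animal or as the mean ± SD of 3 animals. A difference was called when the adjusted p was under 0.05 and the change was at least 2-fold. Levels are compared between cells and not between genes. The endothelial-like class held all 10 of its defining markers. Its level of smooth muscle markers summed to 1666 CPM against 37480 in smooth muscle-like cells. The smooth muscle-like class held 94.1 CPM of endothelial markers against 6570 in endothelial-like cells. T cell markers summed to 614 CPM in the hashtagged smooth muscle-like class and to 65.1 in that of all 10408 cells. The sums were 746 and 240.5 for fibroblasts, and 379.5 and 328 for the endothelial-like class. An alternative left out cells with T cell RNA. It kept 119, 120 and 146 of 174, 472 and 256 smooth muscle-like cells of the animals of 81, 84 and 88 weeks. Of 48, 139 and 51 fibroblasts, 39, 39 and 27 were kept. Erythroid markers, a list of 7 genes with the hemoglobins among them, summed to 15270 CPM in endothelial-like cells, above their own markers, and to 1137 and 4894 CPM in the smooth muscle and fibroblast classes. By subtype they summed to 13050 to 24290 CPM in the capillary-like cells of the 3 animals, 893 to 10950 in arterial-like and 769 to 7755 in large-vessel-like cells. Their part in the results was not tested.

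The 5 receptors were all higher in endothelial-like cells than in smooth muscle-like cells. Kdr measured 1099, 1092 and 856 CPM in the endothelial-like cells of the animals of 81, 84 and 88 weeks, and 4.29, 3.67 and 7.06 in their smooth muscle-like cells. Every endothelial-like value was far above every smooth muscle-like value. The log2 fold change was 7.70 ± 0.20 (SE; edgeR quasi-likelihood test, Benjamini-Hochberg adjusted p = 6.3e-10). Tek measured 233, 206 and 192 against 1.43, 0.80 and 1.47 CPM (log2 fold change 7.49 ± 0.18, adjusted p = 5.8e-10 by edgeR). Tie1, at 228, 228.5 and 214 against 2.38, 0.64 and 2.94, differed by a log2 fold change of 7.05 with an edgeR adjusted p of 4.2e-09. Flt4 had 218 UMIs in endothelial-like cells and 0 in 902 smooth muscle-like cells. With a floor of 3 UMIs over the class put in place of 0, it was 156-fold higher. The lower 95% counting limit of the ratio of these UMIs was 126.1.

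Flt1 was also higher in endothelial-like cells, and it was above background in smooth muscle-like cells. Its values were 1309, 1415 and 1061 against 33.4, 33.7 and 40.3 CPM (log2 fold change 5.14 ± 0.14, adjusted p = 9.3e-10 by edgeR). The smooth muscle-like values lay close together in the 3 animals. Over all smooth muscle-like cells, hashtagged or not, there were 30.04 Flt1 UMIs for each Kdr UMI (95% interval 22.9 to 40.2, counting error only), against 1.26 (1.22 to 1.31) in endothelial-like cells and 1.42 (0.84 to 2.45) in T cell-like cells. Thinned to 1000 UMIs a cell, 3.55% of hashtagged smooth muscle-like cells held a Flt1 UMI (exact 95% interval 2.44 to 4.97) and 0.333% held a Kdr UMI, against 0.244% and 0.366% of T cell-like cells, in which both genes are background; unthinned, the Flt1 shares were 26.4% and 1.34% at median depths of 12180 and 3827 UMIs. Kdr in smooth muscle-like cells was thus at the level of the background, and Flt1 was above it.

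Among the ligands, Vegfb and Angpt2 were lower in endothelial-like than in smooth muscle-like cells and Vegfc was higher. Vegfb measured 9.93, 15.1 and 16.8 CPM in endothelial-like and 61.0, 54.6 and 57.7 in smooth muscle-like cells, with no overlap (log2 fold change -1.99 ± 0.18, adjusted p = 5.5e-06 by edgeR). Angpt2 measured 23.7, 14.6 and 25.3 against 49.6, 44.9 and 42.4, again without overlap (log2 fold change -1.14 ± 0.18, adjusted p = 3.8e-04 by edgeR). Without the animal of 84 weeks the Angpt2 difference was -0.93 and under the 2-fold minimum. Vegfc measured 18.7 ± 3.93 against 4.52 ± 0.91 (SD, n = 3), a log2 fold change of 2.02. Vegfa was 10.1 ± 2.55 against 5.04 ± 1.09, higher in endothelial-like cells of all 3 animals, but its log2 fold change of 0.88 ± 0.31 stayed under the 2-fold minimum of a call. It was called in 4 of 12 alternatives, with 1.56 when cells holding T cell RNA were left out. Both Vegfc and Vegfa differed between the endothelial-like subtypes described below. Vegfc was 3.93 ± 1.03 in capillary-like, 75.3 ± 29.4 in arterial-like and 28.0 ± 8.35 in large-vessel-like cells. Vegfa was 5.50 ± 2.27, 0 and 47.5 ± 25.4 in that order. The capillary-like values of both were near those of smooth muscle-like cells. In all, 6 of the 9 members tested were called higher and 2 lower, where 15.5% of the 10709 genes tested were called higher in endothelial-like cells and 16.0% lower; the median log2 fold change was 5.14 for the members and 0.01 for all genes. Angpt1 was too low in both classes to be tested.

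**Figure D1:**
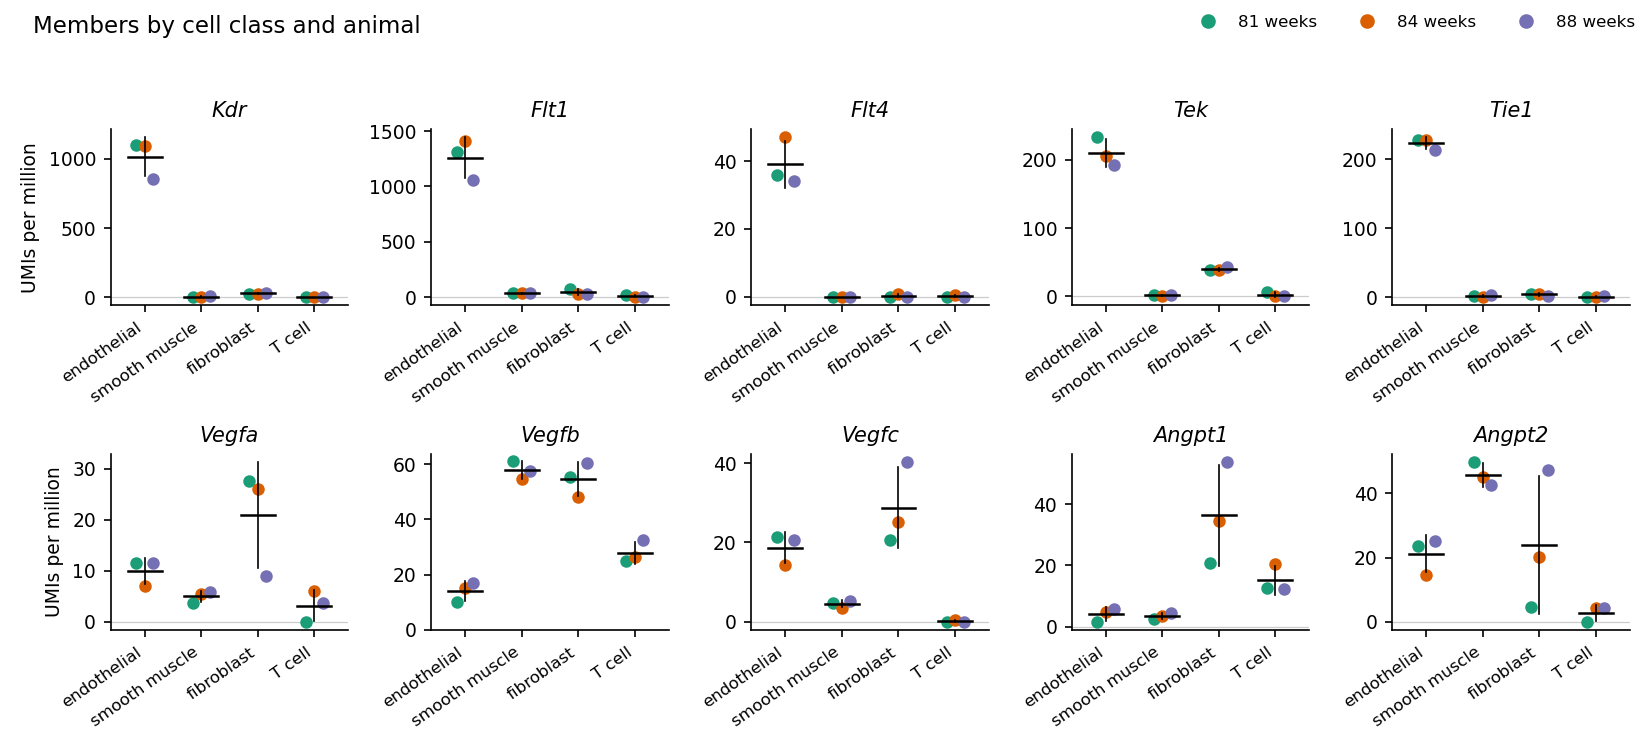
CPM (vertical axis, linear, one scale for each gene) of the 10 members in 4 classes of cells (endothelial-like, smooth muscle-like, fibroblast-like, T cell-like); points are the 3 animals, horizontal lines their mean and vertical lines ± 1 SD. The receptors in the upper row stand high in endothelial-like cells, Tek also reaches 39.9 on average in fibroblast-like cells, and the ligands in the lower row are spread over the wall classes.

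Fibroblast-like cells differed from endothelial-like cells in the same 5 receptors and in 3 ligands, of which Vegfb also differed between endothelial-like and smooth muscle-like cells. Kdr, Flt1, Tie1 and Flt4 had log2 fold changes of 5.20, 4.98, 5.71 and 6.22 in favour of endothelial-like cells, all with edgeR adjusted p values of 6.2e-07 or less. Flt4 had 1 UMI in the fibroblast-like cells (82.5-fold, 95% counting interval 14.7 to 3273). Tek, at 210 ± 20.8 against 39.9 ± 2.38 CPM (SD, n = 3), differed by a log2 fold change of 2.44 ± 0.16 (adjusted p = 3.8e-08 by edgeR). The fibroblast-like values of Tek, 39.2, 37.9 and 42.5, were narrow across the animals.

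Angpt1, the activating ligand of Tek, was highest of these 3 classes in fibroblast-like cells. It measured 20.7, 34.6 and 53.7 CPM there, 1.53, 4.88 and 5.79 in endothelial-like cells and 2.38, 3.51 and 4.41 in smooth muscle-like cells. The fibroblast-like values overlapped with neither class. The log2 fold changes were -3.04 ± 0.33 for endothelial-like against fibroblast-like (adjusted p = 5.4e-06 by edgeR) and -3.28 ± 0.31 for smooth muscle-like against fibroblast-like cells (adjusted p = 1.3e-08 by edgeR). Vegfb was likewise lower in endothelial-like than in fibroblast-like cells (log2 fold change -1.87). Vegfa was called lower in endothelial-like cells as well, by -1.13 ± 0.39 (adjusted p = 0.031 by edgeR), but the groups overlapped: the fibroblast-like values were 27.6, 26.1 and 8.95 against 11.5, 7.10 and 11.6, and the animal of 88 weeks went the other way. That call was lost without the animal of 81 weeks (-1.06) or of 84 weeks (-0.58), with DESeq2 and under 10% mitochondrial UMIs (-1.07), and held in 7 of 11 alternatives. Angpt2 (log2 fold change -0.19 ± 0.38) and Vegfc (-0.63 ± 0.28) were not called between these classes. Of the 10 members tested 5 were called higher and 3 lower, against 12.9% and 15.3% of the 9578 genes tested, and the medians were 1.13 and 0.00.

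Smooth muscle-like and fibroblast-like cells, the 2 wall classes around the endothelium, differed in 6 of the 8 members tested. Smooth muscle-like cells were lower in Tek (log2 fold change -5.00 ± 0.37), Vegfc (-2.63 ± 0.33), Kdr (-2.52 ± 0.32), Vegfa (-1.97 ± 0.37) and Angpt1, all with edgeR adjusted p values of 1.8e-04 or less. Vegfc measured 4.76, 3.51 and 5.29 CPM in smooth muscle-like and 20.7, 25.3 and 40.3 in fibroblast-like cells, with no overlap. Angpt2 was called higher in smooth muscle-like cells (1.05 ± 0.30, adjusted p = 0.0074 by edgeR), yet its fibroblast-like values ran from 4.61 through 20.2 to 47.0 and overlapped the smooth muscle-like values of 42.4 to 49.6. This call was lost without the animal of 81 weeks (0.73) or of 84 weeks (0.90), and held in 6 of 13 alternatives. Vegfb, 57.8 ± 3.18 against 54.6 ± 6.23, and Flt1, 35.8 ± 3.91 against 45.0 ± 24.9 (SD, n = 3), were not called. Over all cells, hashtagged or not, Flt1 had the other order, 28.4 CPM in the first class and 15.7 in the second. For comparison, 9.20% of the 10221 genes tested passed as higher and 11.6% as lower, and the median was -2.24 for the members and -0.03 for all genes. Only 2 members were called with a stricter hashtag (at least 2 times the cutoff), or without cells holding T cell RNA. Fewer cells were left there: Tek and Vegfa were then too low to be tested, and Kdr was still called (-2.45 and -2.60).

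With doublets kept in and cells clustered anew, the Kdr difference between these wall classes was -0.29 and not called. Endothelial markers summed to 217 to 259 CPM in the fibroblast-like cells of the 3 animals and to 86.1 to 106 in the smooth muscle-like cells, with all 10 markers detected in both. In an alternative chosen after seeing the data, when wall cells that held a UMI of any of 5 endothelial markers were left out, Kdr was too low to be tested, Tek remained called at -6.92, and Flt1 turned to 0.92 without being called. Over all cells, hashtagged or not, Kdr was lower in both classes than in the hashtagged ones, at 9.45 CPM in fibroblast-like and 0.945 in smooth muscle-like cells, against 28.9 ± 2.09 and 5.01 ± 1.80 (SD, n = 3). The part of endothelial RNA in the Kdr difference was not tested.

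**Figure D2:**
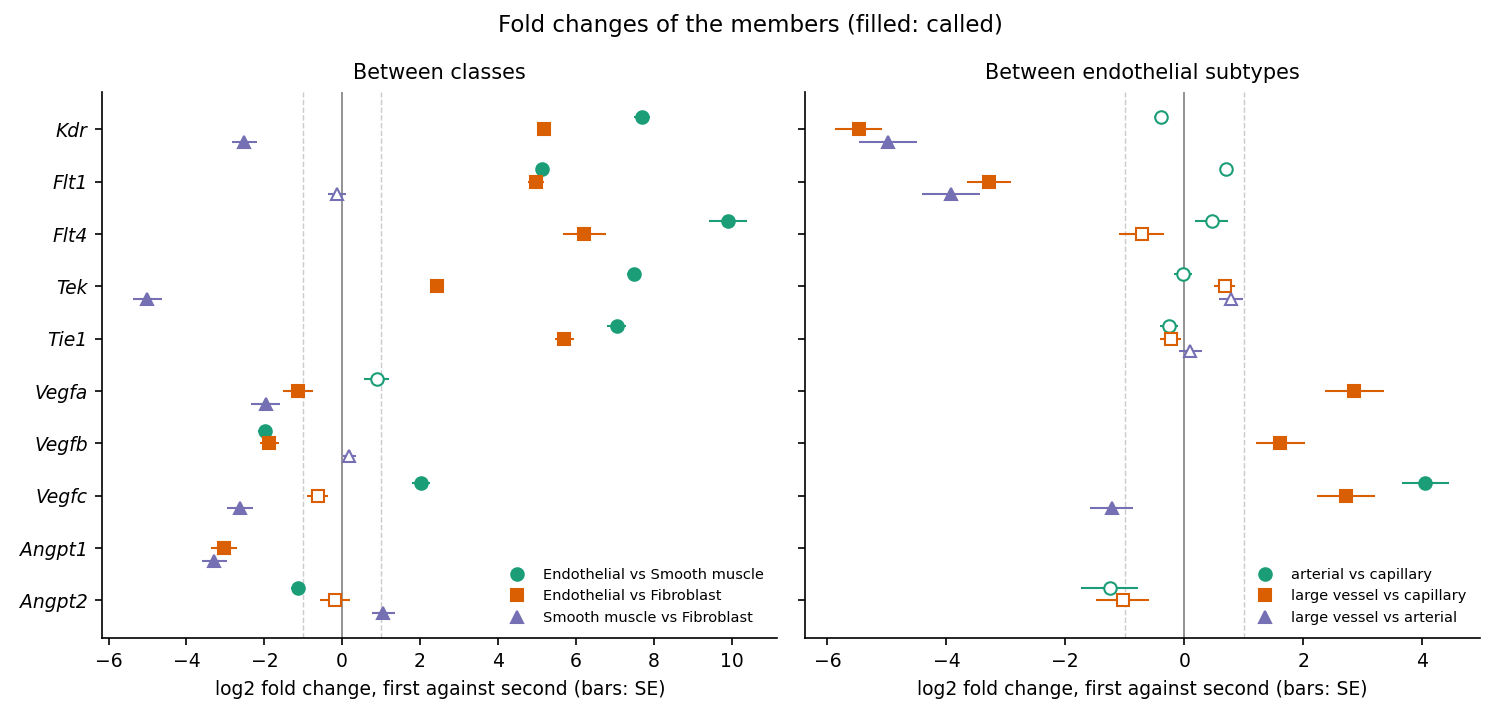
Log2 fold change (horizontal axis) of each member in the 3 comparisons between classes (left) and the 3 between endothelial-like subtypes (right), first-named group against second, with bars of ± 1 SE; filled symbols were called, open ones were not, dashed lines mark a 2-fold change, and members that were too low to be tested have no symbol. Kdr and Flt1 lie far to the left for the large-vessel subtype, at -5.47 and -3.28 against capillary cells, while Tie1 lies near 0.

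Endothelial-like cells fell into 3 subtypes with enough cells in every animal: capillary-like (714 cells), arterial-like (148) and large-vessel-like (72, led by Cytl1, Bmp4 and Vwf), with 47 cells outside them that also held T cell RNA. The large-vessel-like cells had little Kdr. It measured 63.7, 41.4 and 4.49 CPM there against 1316, 1294 and 1143 in capillary-like and 840, 1109 and 1002 in arterial-like cells. The ranges were far apart, and the log2 fold change was -5.47 ± 0.40 against capillary-like (adjusted p = 4.2e-07 by edgeR) and -4.99 ± 0.49 against arterial-like cells (adjusted p = 1.6e-05 by edgeR). Thinned to 1000 UMIs, 1.39% of large-vessel-like cells held a Kdr UMI (exact 95% interval 0.0352 to 7.50), against 68.1% of capillary-like (64.5 to 71.5) and 54.1% of arterial-like cells (45.7 to 62.3). Unthinned shares were 13.9%, 94.5% and 89.9%, at median depths of 8116, 3884 and 4958 UMIs. T cell-like cells, the background, stood at 0.366%.

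Flt1 was lower in the large-vessel-like cells too, at 255, 207 and 33.6 CPM against 1367, 1386 and 1150 in capillary-like cells. The log2 fold change was -3.28 ± 0.37 (adjusted p = 2.1e-05 by edgeR), and -3.92 ± 0.49 against arterial-like cells (adjusted p = 1.1e-04 by edgeR). The animal of 88 weeks was the lowest of the 3 in both receptors. Arterial-like cells had the highest Flt1, 2205 ± 277 against 1301 ± 131 (SD, n = 3); all 3 animals were higher without overlap, but the log2 fold change of 0.71 ± 0.11 (adjusted p = 4.5e-06 by edgeR) stayed under 2-fold. Kdr was 984 ± 135 against 1251 ± 94.2 in the same comparison (-0.39 ± 0.11), also under 2-fold, and it reached -1.08 and a call when endothelial-like cells were clustered on their own. The arterial-like cluster of that alternative (56 cells) also held pericyte RNA, with Rgs5, Notch3, Ndufa4l2 and Higd1b among its leading genes.

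Tek and Tie1 did not follow Kdr and Flt1. In large-vessel-like cells Tek measured 357, 363 and 242 CPM, each above the 217, 194 and 177 of the capillary-like cells of that animal. Its log2 fold change was 0.68 ± 0.18 (adjusted p = 0.010 by edgeR), short of the 2-fold minimum, and it was 0.78 ± 0.20 against arterial-like cells. Tie1 stood at 236 ± 13.7, 201 ± 27.8 and 200 ± 19.2 (SD, n = 3) in capillary-like, arterial-like and large-vessel-like cells, with no call in any pair. The arterial and large-vessel values of Tie1 overlapped. Flt4 measured 39.3 ± 8.60, 56.6 ± 13.5 and 21.9 ± 15.2 in the same order and was not called, and for large-vessel against arterial cells it was too low to be tested. Without endothelial-like cells holding pericyte RNA, an alternative chosen after seeing the data, the log2 fold change of Flt4 for large vessel against capillary moved from -0.72 to -1.55 and was called.

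The ligands in endothelial-like cells differed by subtype as well. Vegfc measured 106, 47.0 and 73.3 CPM in arterial-like, 31.9, 18.4 and 33.6 in large-vessel-like and 3.13, 3.57 and 5.10 in capillary-like cells. No 2 of the 3 ranges overlapped. The log2 fold changes were 4.05 ± 0.40 for arterial against capillary (adjusted p = 3.2e-10 by edgeR), 2.72 ± 0.49 for large vessel against capillary (adjusted p = 9.3e-04 by edgeR) and -1.22 ± 0.36 for large vessel against arterial (adjusted p = 0.023 by edgeR). The last was lost without the animal of 81 weeks (-1.10) or of 84 weeks (-1.23) and with DESeq2. It was also lost with doublets kept in and cells clustered anew (-0.41). Pericyte markers moved with the arterial subtype, summing to 827 to 1156 CPM against 140 to 203 in capillary-like cells, with all 7 markers detected in both. An alternative, also chosen after seeing the data, left out endothelial-like cells with a UMI of any of 5 pericyte markers (Higd1b, Kcnj8, Abcc9, Vtn and Ndufa4l2). Rgs5 and Cspg4 of the 7 were not used for it, so it need not remove all pericyte RNA. It kept 28, 64 and 35 of 33, 73 and 42 arterial-like cells. Vegfc in arterial against capillary cells was then 3.66 and called. Pericyte-like cells had 5.20 CPM of Vegfc.

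Vegfa and Vegfb were both higher in large-vessel-like than in capillary-like cells. Vegfa measured 76.5, 36.8 and 29.2 against 3.13, 5.71 and 7.65 CPM (log2 fold change 2.86 ± 0.50, adjusted p = 7.2e-04 by edgeR), and no arterial-like cell held a Vegfa UMI (0 of 881990 UMIs, which allows up to 3.40 CPM). Vegfb measured 31.9, 23.0 and 40.4 against 8.35, 13.6 and 9.35 (1.62 ± 0.41, adjusted p = 0.0096 by edgeR), and its call was lost without the animal of 88 weeks (1.21) and with DESeq2. Neither set of values overlapped. Fibroblast markers moved with this subtype: they summed to 1211 to 2384 CPM in large-vessel-like cells and to 296 to 446 in capillary-like cells, and all 10 were detected in both. Their part in the Vegfa and Vegfb differences was not tested. Angpt1 was 14.8 ± 2.75, 4.95 ± 4.35 and 0.996 ± 1.08 CPM in large-vessel-like, arterial-like and capillary-like cells (SD, n = 3) and was too low to be tested. Angpt2 was 10.4 ± 8.54, 12.6 ± 8.34 and 25.3 ± 4.73 in that order. It was not called in either pair with capillary-like cells and was too low to be tested for large vessel against arterial. Vegfa and Vegfb were too low to be tested in either pair with arterial-like cells.

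Over these 3 pairs, arterial against capillary cells gave 1 called member, Vegfc, of the 7 tested, where 2.51% and 1.23% of 6972 genes were called higher and lower. Large-vessel against capillary cells gave 3 higher and 2 lower of 9, where 11.6% and 10.6% of 7234 genes were called. Large-vessel against arterial cells gave 3 lower of 5, where 11.1% and 12.2% of 3870 genes were called. Arterial against capillary cells had 2 members with an adjusted p under 0.05 that missed the fold minimum, Flt1 and Kdr.

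**Figure D3:**
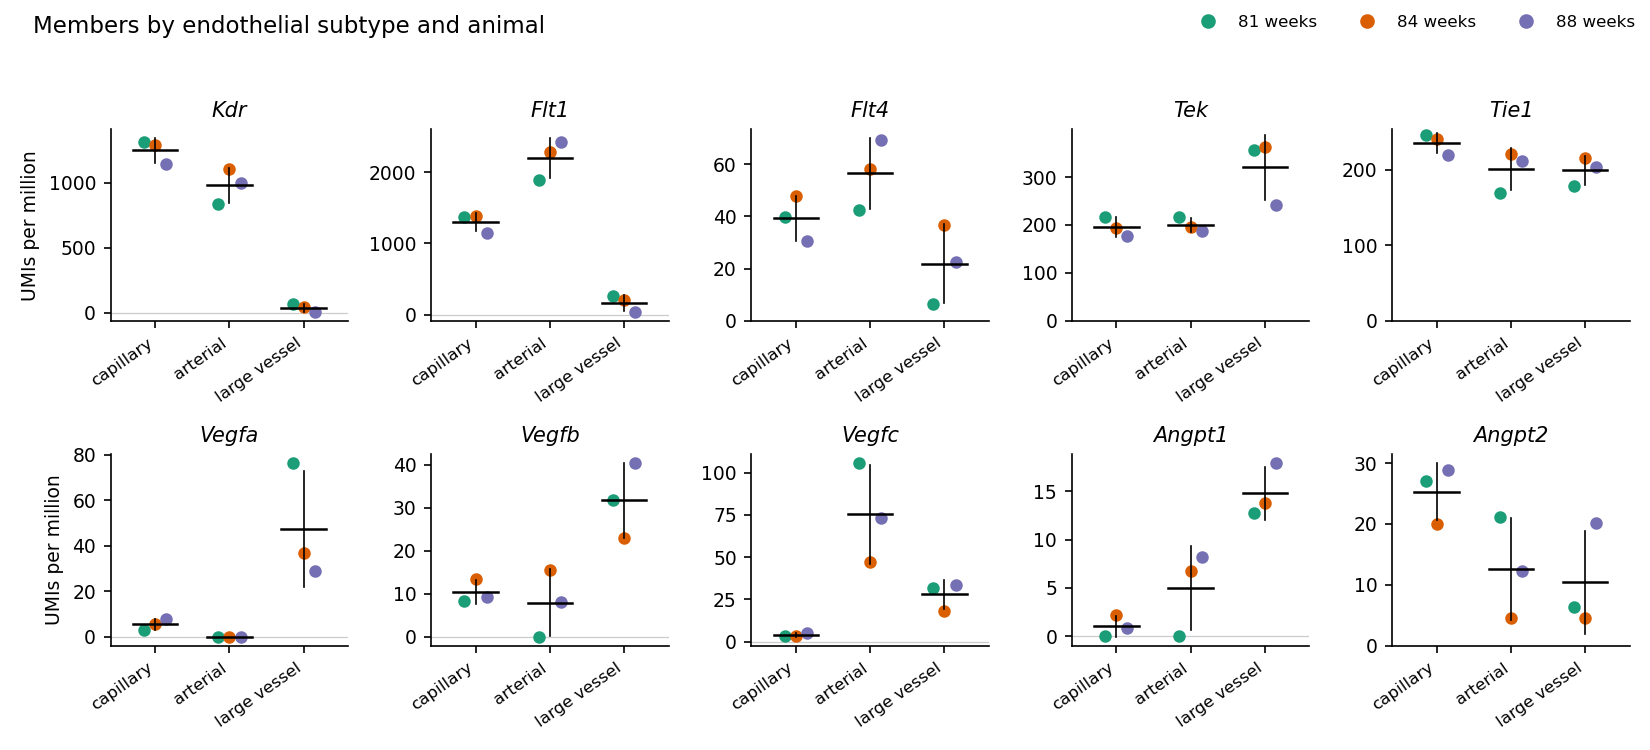
CPM (vertical axis, linear, one scale for each gene) of the members in capillary-like, arterial-like and large-vessel-like endothelial cells; points are the 3 animals, lines their mean and ± 1 SD. Kdr averages 36.5 in large-vessel-like cells against 1251 in capillary-like cells, Tek (321 against 196) and Tie1 show no such drop, and Vegfc is highest in arterial-like cells.

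With all 10408 cells, hashtagged or not, rarer classes could be described, without replicates and with intervals that cover counting error only. Endothelial-like cells were 10.7% of the cells and gave 94.0% of all Kdr UMIs, 94.2% of Tie1, 90.5% of Flt4, 77.9% of Flt1 and 68.0% of Tek UMIs. Fibroblast-like cells gave 28.5% of Tek UMIs. Among the ligands, smooth muscle-like cells, 46.0% of the cells and 58.7% of all UMIs, gave 71.8% of Angpt2 and 68.4% of Vegfb UMIs. Fibroblast-like cells, 12.8% of the cells and 10.9% of all UMIs, gave 37.6% of Angpt1, 37.2% of Vegfc and 33.4% of Vegfa UMIs. Smooth muscle-like cells gave nearly the same shares of Vegfc (36.95%) and Vegfa (33.5%), but 11.2% of Angpt1 UMIs. T cell-like cells, with 9.51% of all UMIs, gave 19.8% of Angpt1 UMIs, and the unnamed clusters gave 12.3%. In hashtagged T cell-like cells Angpt1 was 18.7 CPM (15.9 to 21.95).

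**Figure D4:**
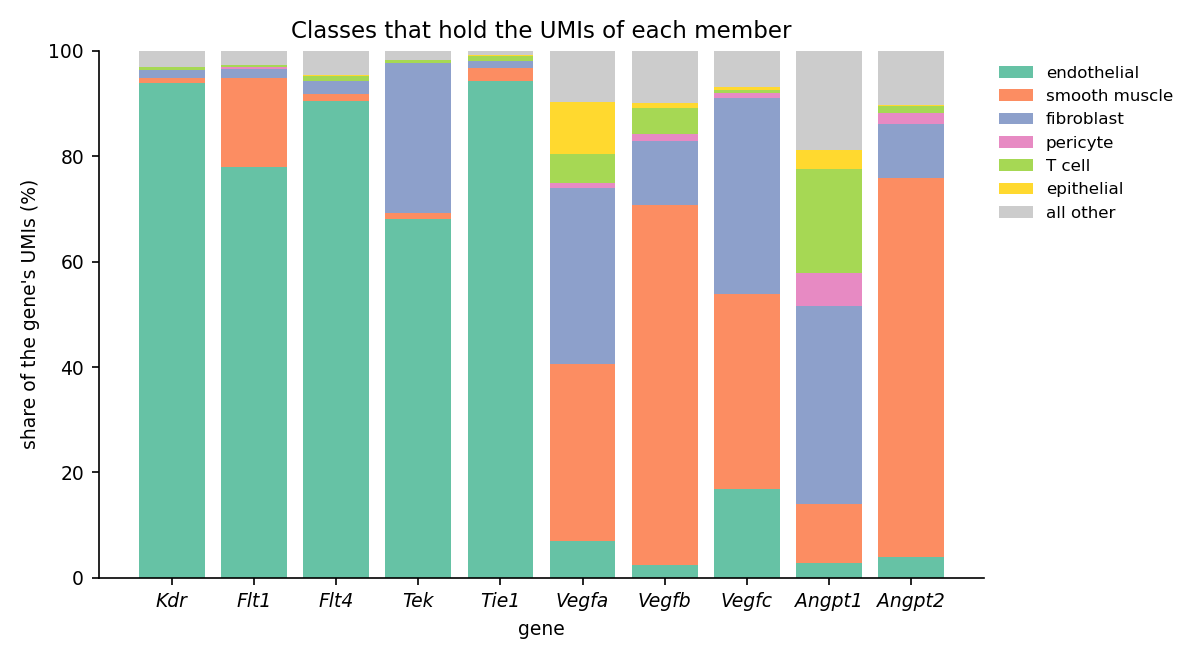
Share of the UMIs of each member (vertical axis, percent, bars stacked to 100) that lay in each class of the 10408 cells. The receptors are mostly endothelial-like, apart from the fibroblast-like share of Tek (28.5%) and the smooth muscle-like share of Flt1 (16.9%). Of the Angpt2 UMIs, 71.8% lay in smooth muscle-like cells.

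Several of these levels differed between clusters of one class by more than counting error. Tek was 84.4 CPM (95% Poisson interval 76.7 to 92.7) in the fibroblast-like cluster led by Pi16 and 14.3 (11.3 to 17.9) in the other fibroblast-like cluster. Angpt2 had the opposite order in these clusters, 10.4 (7.80 to 13.5) against 61.2 (54.8 to 68.2). Vegfa was 40.2 in the first and 19.0 in the second. Pericyte-like cells (139) had 66.8 CPM of Angpt2 (52.7 to 83.4) and 45.1 of Angpt1 (33.7 to 59.1), and their Kdr and Tek were at 1 UMI each. Among the hashtagged cells, a neutrophil-like cluster of 85 cells, led by S100a9 and S100a8, had 86.3 CPM of Angpt1 (67.4 to 109). Vegfa reached 71.2 (56.5 to 88.6) in the 45 epithelial-like cells led by airway genes.

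Kdr UMIs were also counted in cells outside the endothelial-like class. In 51 mesothelial-like cells, the class of the lining of serous cavities, it measured 230 CPM (193 to 272) with 6.73 of Flt1 and 0 UMIs of Tie1 (which allows up to 5.04 CPM), a ratio of 0.0292 Flt1 UMIs for each Kdr UMI. Of the 10 endothelial markers 5 were at 0 in these cells (Cldn5, Ecscr, Emcn, Robo4 and Mmrn2) and 5 were detected. The list summed to 218.6 CPM, against 162 in fibroblast-like and 63.5 in smooth muscle-like cells, and 6241 in endothelial-like cells. The part of endothelial RNA in this Kdr level was not tested. Thinned, 19.6% of the mesothelial-like cells held a Kdr UMI against 0.372% of T cell-like cells; unthinned the shares were 70.6% and 1.17% at median depths of 8845 and 3773 UMIs. Flt4, in turn, was highest in 18 lymphatic-like endothelial cells found when all endothelial-like cells were clustered on their own, led by Ccl21a and Mmrn1 and also holding fibroblast RNA, at 495 CPM (386 to 624). These cells held 564.5 of Kdr and 153 of Flt1.

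A further, unnamed endothelial cluster of 38 cells was led by Prnd, Apln and Pgf. It had 57.2 CPM of Angpt2 (34.4 to 89.3), above the 19.2 and 19.8 of the 2 largest endothelial clusters, and 490.3 of Flt1 against 1259 and 2065 in them. Its Kdr, 1059, was nearer to their 1273 and 1521. High Angpt2 was not particular to it: 29 endothelial-like cells that also held smooth muscle RNA had 62.2 CPM (41.6 to 89.3). A venous-like cluster of 88 cells had 24.2 (12.9 to 41.3). The cluster led by Prnd also held 117 CPM of Pgf, a ligand of Flt1, and 755 of the co-receptor Nrp2. Pgf, Apln and Nrp2 were not used in the clustering. Only 3 of its cells were from the animal of 84 weeks. When hashtagged endothelial-like cells were clustered on their own, the cluster led by Prnd, with Apln and Pgf among its leading genes (98 cells), had 37.2 CPM of Angpt2 (24.7 to 53.8), with 40.15, 9.16 and 44.2 in the animals of 81, 84 and 88 weeks. The animal of 84 weeks was the low one.

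**Figure D5:**
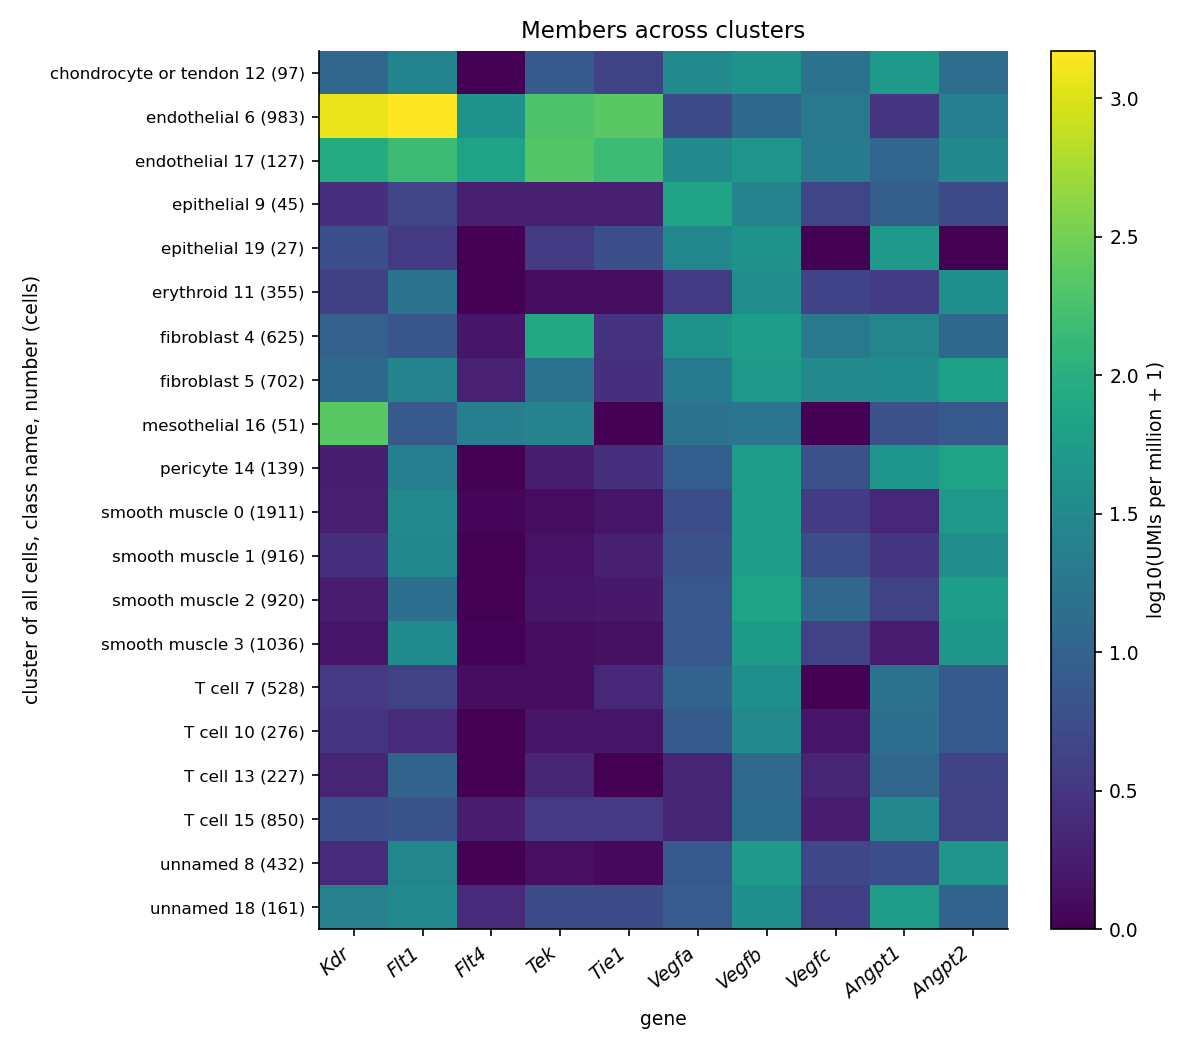
Level of each member, as log10 of CPM plus 1 (colour), in the 20 clusters of all cells, with the number of cells in parentheses. The second endothelial cluster (127 cells) is lower in Kdr and Flt1 than the first but not in Tek, and the mesothelial cluster stands out in Kdr among non-endothelial clusters.

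The co-receptors and partners of the members were read from lists of 65 pathway genes. Of the 4 further VEGF ligands and co-receptors, Nrp1 and Nrp2 were higher in endothelial-like than in smooth muscle-like cells (log2 fold changes 4.32 and 4.00) and Vegfd was lower. Vegfd, a ligand of Flt4, was also lower in endothelial-like than in fibroblast-like cells, 1.56 ± 0.65 against 88.6 ± 19.2 CPM (SD, n = 3; log2 fold change -5.83 ± 0.32, adjusted p = 5.3e-09 by edgeR). Nrp2 was lower in arterial-like (-1.62) and in large-vessel-like cells (-4.46) than in capillary-like cells, while Nrp1 was not called in these pairs. With doublets kept in and cells clustered anew, the arterial difference in Nrp2 was -0.63 and not called. Arterial-like cells then numbered 68, 115 and 68 in the animals of 81, 84 and 88 weeks, against 33, 73 and 42. The median log2 fold change of the 4 genes was 2.56 against smooth muscle-like cells, where that of all genes was 0.01.

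Among the 7 angiopoietin and Tie partners, Ptprb, the phosphatase that restrains Tek, was 1443 ± 22.9 CPM in endothelial-like cells against 42.4 ± 16.6 in fibroblast-like and 8.82 ± 3.25 in smooth muscle-like cells (SD, n = 3). Its log2 fold changes were 5.14 and 7.49. In large-vessel-like against capillary-like cells Ptprb went with Tek and not with Kdr, at 1999 ± 262 and 1208 ± 132 (0.73 ± 0.16, under 2-fold). In arterial-like cells Ptprb was 1914 ± 115.5, also above capillary-like cells (0.62 ± 0.10, under 2-fold). Tek did not differ in that pair (-0.02 ± 0.15). Svep1, a matrix protein that binds Tie1, and Angptl1 were fibroblast-like genes: Svep1 measured 0.255 ± 0.44 in endothelial-like, 1.07 ± 0.35 in smooth muscle-like cells, against 156 ± 39.3 in fibroblast-like cells. Of the 5 partners tested between endothelial-like and fibroblast-like cells 1 was higher and 3 were lower, where 12.9% and 15.3% of all genes were called, with a median of -2.68 against 0.00 over all genes. Ccbe1, which helps to activate Vegfc, was lower in both endothelial-like and smooth muscle-like than in fibroblast-like cells (list medians, from this 1 tested gene, of -6.29 and -6.58).

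Of the 22 genes of VEGFR2 signalling, 8 of 21 tested were higher in endothelial-like than in smooth muscle-like cells and 2 lower, where 15.5% and 16.0% of all genes were called, with a median of 0.66 against 0.01 over all genes. Nos3, the endothelial nitric oxide synthase, was 90.0 ± 20.6 against 1.34 ± 0.19 CPM (SD, n = 3). In large-vessel-like cells 3 of 17 were higher than in capillary-like cells and 1 lower, near the 11.6% and 10.6% of all genes, with a median of -0.13 against -0.01. Nos3 was higher there (1.33 ± 0.20), and Hspb1, a small heat shock protein, was lower (-3.39 ± 0.25).

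Of 10 endothelial genes known to respond to VEGF, 6 were higher in endothelial-like against smooth muscle-like cells, where 15.5% of all genes were (median 2.03 against 0.01). In large-vessel-like against capillary-like cells 4 of 7 tested were lower (Hlx, Dll4, Nr4a1 and Adamts1), 1 was higher (Plvap), where 10.6% and 11.6% of all genes were called lower and higher, and the median was -1.44 against -0.01. The Nr4a1 call was lost without the animal of 88 weeks (-0.95). Dll4, a Notch ligand of tip and arterial cells, measured 18.4 ± 10.2 against 80.3 ± 14.4 CPM (SD, n = 3; log2 fold change -2.45 ± 0.42). In arterial-like against capillary-like cells 3 of 8 were higher (Esm1, Egr3 and Adamts1), where 2.51% of all genes were, with a median of 0.73 against -0.01. Egr3 varied widely between the animals, at 141.6 ± 152.5 CPM in arterial-like against 32.4 ± 12.45 in capillary-like cells (SD, n = 3). The Adamts1 call was lost with doublets kept in and cells clustered anew (0.92). VEGF signalling itself was not measured. The part of the tissue digestion in the levels of Egr3, Nr4a1, Adamts1, Klf4 and Hspb1 was not tested.

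Of 7 FOXO1 and flow-related genes, Klf4 was 872 ± 175 CPM in endothelial-like against 36.6 ± 0.77 in smooth muscle-like cells (SD, n = 3), and it was lower in large-vessel-like than in capillary-like cells (-1.22 ± 0.20). Of 13 HIF genes, Epas1, which encodes HIF-2α, was higher in endothelial-like than in smooth muscle-like (log2 fold change 2.90) and fibroblast-like cells (3.97). Hif1a was 83.5 ± 10.2 in endothelial-like, 77.4 ± 14.8 in fibroblast-like and 160.5 ± 9.10 in smooth muscle-like cells; it was called for smooth muscle-like against fibroblast-like cells, at 1.17, and this was lost with the stricter hashtag (0.63). Endothelial-like against smooth muscle-like Hif1a, at -0.93, was called without the animal of 88 weeks (-1.06) or without cells holding T cell RNA (-1.07). The HIF lists had medians of 0.21 and 0.16 for endothelial-like against smooth muscle-like and against fibroblast-like cells.

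By their pattern over the 18 clusters of at least 50 cells (Pearson r of log2 of CPM plus 10, a description without a test, since clusters share the same pool and depth), Kdr was most like Rasgrp3 (r = 0.98), Tie1 was most like Ccm2l and Rasip1 (both 1.00), and Tek most like Hspa12b (0.94). Flt1 was most like Zfp979 (0.96) and Flt4 like Samd12 (0.97). The ligands had other neighbours: Angpt2 was most like Heyl (0.94), Vegfc like Fmo1 (0.91), Vegfa like Ptn (0.90), Vegfb like Mrpl14 (0.90) and Angpt1 like Maml3 (0.83).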

How the data were processed

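Raw UMI counts per gene and cell barcode were deposited as 1 matrix that pools 4 gene expression and 4 hashtag libraries; per the file headers it was made by the authors with Cell Ranger 6.0.1, and the submitters' processing notes name Cell Ranger, Seurat 4.0.5 and mm10. A deposited table pairs each hashtag with an age. Deposited feature names and barcodes carry no measured unit. No barcode occurred more than once. Libraries are not kept apart, so depth per library is not given; per animal, kept cells held 5200412, 18049453 and 8192038 UMIs.

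Hashtags were called with HTODemux (Seurat 5.3.0, quantile 0.99; cutoffs 129, 765 and 266 UMIs). Cells had at least 500 genes, 1000 UMIs and under 15% mitochondrial UMIs; Scrublet (scanpy 1.11.5, expected share 0.06) called 360 doublets (3.19%), which were removed. Clusters (2000 variable genes, 30 components, 15 neighbours, Leiden 0.8, igraph 0.11.9) left out members, pathway, mitochondrial and ribosomal genes; genes that vary with the members could still shape them. Class names needed at least 3 markers and a score of 1.5. The 3 endothelial subtypes had no such minimum. Each endothelial-like cluster took the subtype whose score lay furthest above its mean over these clusters. When hashtagged endothelial-like cells were clustered on their own, the rule with minima gave arterial and large-vessel names but no capillary name.

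Sums of raw counts for each class in each animal were tested with edgeR 4.0.16 (quasi-likelihood, TMM, filterByExpr, animal as a block because classes of an animal share their donor, Benjamini-Hochberg over all genes); calls took adjusted p under 0.05 with at least a 2-fold change. The test was checked on simulated counts. The edgeR test gives no SE of a fold change. The SE printed is the absolute log2 fold change divided by the square root of the F statistic. Intervals are exact 95% Poisson or binomial ones. DESeq2 1.42.0 was an alternative. Beside all members, the 2 called pathway genes with the largest change each way per list and comparison were to be named, given 1 sign in all animals and at least 50 CPM in the higher class, and always Nrp1, Ptprb and Hif1a; genes named outside that rule (those of counts of 5 or fewer, levels in clusters) were chosen after their values were seen. Members and lists were chosen with earlier results of these data known. Protein sequences and the promoters of Angpt1 and Angpt2 were not used here.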

Additional observations from a re-analysis of the deposited data

How the results depend on the processing

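The members called numbered 8, 8, 6, 1, 5 and 3 in the comparisons endothelial against smooth muscle, endothelial against fibroblast, smooth muscle against fibroblast, arterial against capillary, large vessel against capillary and large vessel against arterial. Leaving out each animal in turn gave 8 to 8, 7 to 8, 5 to 6, 1 to 1, 4 to 6 and 2 to 3 members, and 3345 to 3536, 2296 to 2833, 1836 to 2319, 186 to 247, 1348 to 1784 and 681 to 1153 genes. The pairing comes from the hashtags, since classes of one animal share it; without the replicate block 3344, 2650, 2105, 213, 1609 and 915 genes and 8, 8, 6, 1, 5 and 3 members were called, against 3369, 2698, 2125, 261, 1609 and 904 genes with it.

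For smooth muscle against fibroblast, a hashtag of at least 2 times the cutoff gave 1159 genes and 2 members, and leaving out cells with T cell RNA gave 2 members. Arterial against capillary had 144 genes with DESeq2, and 466 genes and 2 members with endothelial cells clustered on their own. Large vessel against arterial had 1541 genes and 6 members with no filter on low counts and 1402 genes with doublets kept in. Of the log2 fold changes under alternatives, 1382 kept direction and side of the threshold, 33 lost a call, 8 gained one and 32 turned sign, none of these called in the report. The cause of these changes was not tested. With doublets kept in, cells were clustered and named anew, so these groups differ in more than doublets. Per animal, arterial-like cells went from 33, 73 and 42 to 68, 115 and 68. Capillary-like cells went from 193, 296 and 225 to 154, 275 and 190.

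The values that turned were as follows. For endothelial against fibroblast, Angpt2 was 0.06 with DESeq2, 0.08 without wall cells holding endothelial RNA and -0.61 to 0.26 with an animal left out. Hif1a there was -0.28 with the stricter hashtag and -0.01 without T cell RNA. For smooth muscle against fibroblast, Flt1 was 0.21 with doublets kept in, 0.17 at Leiden resolution 1.2, 0.92 without wall cells holding endothelial RNA and -0.34 to 0.30 with an animal left out, and Vegfb was -0.14 with the stricter hashtag and -0.16 without T cell RNA. For arterial against capillary, keeping doublets gave Tek 0.10, Tie1 0.06, Kdr 0.05, Angpt2 0.08 and Nrp1 0.04, and clustering endothelial cells on their own gave Tek 0.08 and Hif1a -0.32. For large vessel against capillary, Nrp1 was 0.16 with no replicate block, 0.06 without cells holding pericyte RNA and -0.65 to 0.39 with an animal left out, and Hif1a was -0.30 to 0.52. For large vessel against arterial, keeping doublets gave Tie1 -0.23, Nrp1 -0.04 and Hif1a 0.07; own clustering gave Ptprb -0.01 and Hif1a 0.40; Hif1a was 0.07 with no replicate block, 0.09 under 10% mitochondrial UMIs and 0.02 without pericyte RNA. With an animal left out, Nrp1 ran from -0.41 to 0.79 and Hif1a from -0.35 to 0.03.

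Depth limited the ligands most: Angpt1 had too few UMIs to be tested in 4 of the 6 comparisons, and large-vessel cells gave 33 Vegfa UMIs in all.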
